A study of Mus musculus with 12 samples.

Results

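Methylation outside CG sites was compared gene by gene between miR29 knockout (KO) and wild-type (WT) mouse cortex at postnatal day 40 (P40), in all 4 KO and all 4 WT libraries of that age. These are 8 of the 12 libraries in the series, and they were chosen by their titles. All mice were on the C57BL/6 background, and the tissue was whole cortex. The other 4 libraries, 2 WT and 2 of the genotype labelled Dnmt3a mi5, were from cortex at 4 months of age. They shared the estimate of spread in the gene-by-gene model, and the 2 WT among them also served to rank genes by their usual level. The labels give the KO genotype as "miR29 KO" and do not say which of the miR-29 genes were deleted, in which cells, or whether animals were pooled. They do not say that replicates came from separate animals, so p-values measure only the spread between these libraries. In bulk tissue, a change in the mix of cell types and a change within cells cannot be told apart.

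Non-CG methylation (mCH) is methylation of a cytosine that is not followed by guanine. In the mammalian brain it is laid down mostly by the DNA methyltransferase DNMT3A, builds up in neurons during the first weeks after birth, and is in general lower over genes that a neuron transcribes strongly. MicroRNAs of the miR-29 family are short RNAs that repress messenger RNAs through pairing with their seed, and they increase in the brain as it matures. Dnmt3a messenger RNA is a known target of the family.

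The mature 3p products of the family are shown because the seed that defines the family is the same in all of them. The sequences are from RefSeq (GRCm38.p6, not the build of the methylation tables), with U for uracil and with the seed, bases 2 to 8, in capitals.
mmu-miR-29a-3p: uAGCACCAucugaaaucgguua
mmu-miR-29b-3p: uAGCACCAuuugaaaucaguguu
mmu-miR-29c-3p: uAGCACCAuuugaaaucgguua
The 29a and 29c forms differ at 1 position, 10, and 29b differs from 29c at positions 18, 21 and 22 of their shared length. In that build Mir29a lies at chr6:31062673-31062694 and Mir29b-1 at chr6:31063025-31063047, both on the minus strand. Mir29b-2 lies at chr1:195037091-195037113 and Mir29c at chr1:195037600-195037621, both on the plus strand. These are the positions of the mature products.

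The 4 miR-29 genes were looked at first, as a check of the labels, by the number of non-CG calls that fell on them. A call is 1 cytosine read as methylated or unmethylated. Mir29a had 49, 70, 30 and 84 calls in WT libraries 1 to 4 and 7, 0, 8 and 0 in KO libraries 1 to 4. Mir29c had 28, 25, 40 and 60 calls in WT and 13, 15, 22 and 0 in the KO. In both genes every KO library was below every WT library. Mir29b-1 had 32, 8, 21 and 23 calls in WT and 6, 22, 21 and 0 in the KO. Mir29b-2 had 115, 34, 30 and 77 in WT and 0, 32, 3 and 6 in the KO, so the groups overlapped in both of these genes. Summed over the 4 genes, WT libraries had 224, 137, 121 and 244 calls and KO libraries 26, 69, 54 and 6. The sums did not overlap (p = 0.0286 in a two-sided exact permutation test, where 70 ways to assign 4 against 4 allow no smaller value). Over 1106 microRNA genes outside the family the median was 43.5 to 55 calls per library, so the low sums in the KO libraries went with their label. KO library 2 kept the most calls and KO library 4 the fewest.

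**Figure D1:**
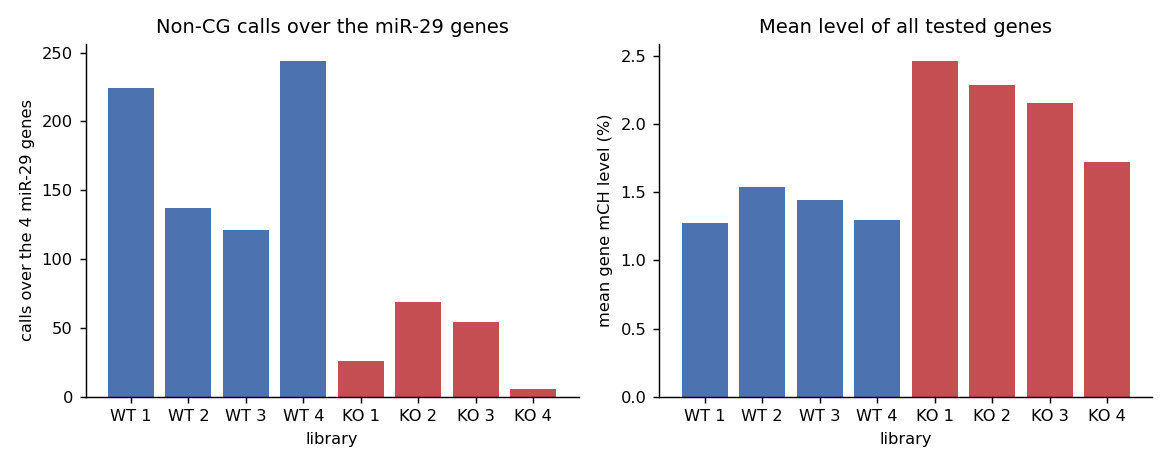
Left, non-CG calls summed over the 4 miR-29 genes in each P40 library. Right, mean mCH level of 19826 genes in percent in the same libraries. WT libraries are blue and KO libraries red, and there are no error bars because each bar is 1 library. All KO bars are below all WT bars on the left and above them on the right, and KO 4 is the lowest KO library on both sides.

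A gene's mCH level is its methylated calls over all its calls, in percent. The mean level over 19826 genes was 1.28%, 1.54%, 1.44% and 1.29% in WT libraries 1 to 4, and 2.46%, 2.29%, 2.15% and 1.72% in KO libraries 1 to 4. Every KO library lay above every WT library. KO library 4 was the lowest KO library, at 1.24 times the WT mean where the others were at 1.55 to 1.78 times. The means were 1.39% ± 0.124 in WT and 2.16% ± 0.316 in the KO (SD, n = 4 each), a ratio of 1.56 (two-sided exact permutation test, p = 0.0286; 0.0381 adjusted over 4 measures). KO library 1 was above the highest WT library in 88.9% of genes and KO library 4 in 62.2%. In WT library 2 and KO library 3 the calls on 3 Y-linked genes were at 2.03 and 1.75 per 1000000 calls, against 40.5 to 42.7 in the other 6. Without both, the ratio was 1.61 (exact permutation test, p = 0.100, the smallest that 3 against 3 allow). The P40 libraries held 605997533 to 732985426 calls over all genes. The median gene had 11864 to 14324.5 calls per library, and group means of that number were 12871.5 in WT and 13196.8 in the KO. A gene of that depth at 0.740% has a 95% Wilson interval of 0.612% to 0.894%, which covers counting error only.

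Per gene, the change was the log2 odds ratio of a methylated call in the KO against WT, fitted as quasi-binomial over all 12 libraries with the dispersion moderated by limma. A gene was called at a Benjamini-Hochberg adjusted p under 0.05. With the shift common to all genes kept, 76.5% of genes rose and 0.0454% fell. In 57.1% of genes every KO library was above every WT library. The middle 50% of genes had log2 odds ratios from 0.50 to 0.75, and 1% of genes were below -0.41 and 1% above 1.11. In levels, the median difference was 0.749 percentage points, with 0.0191 points at the 5th percentile and 1.59 at the 95th. The 4650 genes called neither way had lower levels, with a median WT level of 0.573% against 1.57% for genes that rose. They also had fewer calls, 5122 against 17384, and 82.6% of them had a positive log2 odds ratio. Long non-coding RNA genes had a median level of 1.84% in WT and 2.98% in the KO, and 83.8% of 1878 rose. Of 17740 protein-coding genes 75.9% rose.

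The size of the change followed the level a gene has in wild-type cortex. Genes were ranked by their level in the 4-month WT libraries, which do not enter the P40 change, and cut into deciles. In the lowest decile the median level was 0.434% ± 0.0162 in WT and 0.515% ± 0.0428 in the KO (SD, n = 4 each; exact permutation test, p = 0.0571), and the groups overlapped. In the second decile it was 0.562% and 0.773%, in the fifth 1.19% and 1.89%, and in the highest 2.59% and 4.03%. KO libraries did not overlap WT libraries in the 9 higher deciles (exact permutation test, p = 0.0286 each, 0.0317 adjusted over the 10 deciles). The difference grew from 0.0810 points in the lowest decile to 1.45 points in the highest. As a ratio, KO over WT was 1.19 in the lowest decile, 1.37 in the second and 1.47 in the third, reached 1.63 in the seventh and was 1.56 in the highest. All 4 KO libraries had their smallest ratio in the lowest decile. That ratio was 1.28, 1.23, 1.19 and 1.05 in KO libraries 1 to 4, and their largest ratios were 1.87, 1.74, 1.63 and 1.28.

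**Figure D2:**
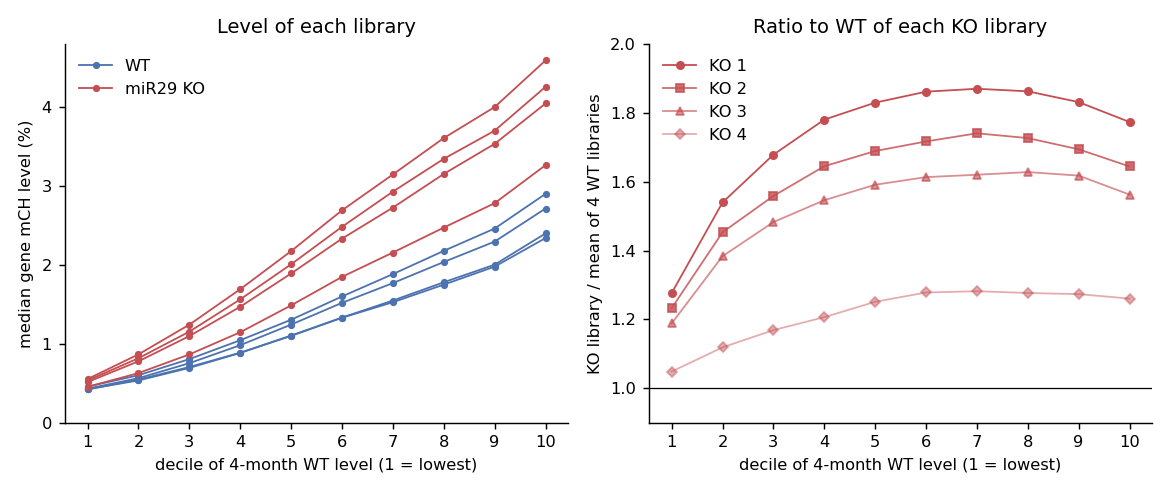
Left, median mCH level in percent of the genes of each decile in each P40 library, against the decile of the gene's level in the 4-month WT libraries. Right, the same for each KO library as a ratio to the mean of the 4 WT libraries, on an axis that starts at 0.9. KO and WT lines are closest at the lowest decile, where only KO 4 lies among the WT libraries, and part as the level rises, and each KO library's ratio is smallest in the lowest decile, from 1.05 in KO 4 to 1.28 in KO 1.

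A straight line of gene level on the 4-month WT level was fitted within each library. Its slope was 0.831, 1.05, 0.989 and 0.858 in WT libraries 1 to 4 and 1.72, 1.59, 1.51 and 1.22 in KO libraries 1 to 4. The slopes did not overlap, with means of 0.932 ± 0.105 and 1.51 ± 0.212 (SD, n = 4 each; exact permutation test, p = 0.0286; 0.0381 adjusted over 4 measures). The intercept was 0.160% ± 0.0184 in WT and 0.174% ± 0.0378 in the KO, and its difference of 0.0142 points was not past the spread of the libraries (exact permutation test, p = 0.486; 0.486 adjusted). The sign of the intercept difference depended on the reference. With the other P40 WT libraries as reference it was -0.118 points (exact permutation test, p = 0.0286), and with a minimum of 2000 calls it was -0.00622 points (p = 0.743). The highest decile was 5.95 ± 0.418 times the lowest in WT and 7.80 ± 0.468 times in the KO (SD, n = 4 each; exact permutation test, p = 0.0286; 0.0381 adjusted). The 1st percentile of gene levels was 0.227% to 0.258% in WT and 0.258% to 0.287% in KO libraries, while the 90th was 2.17% to 2.69% and 3.04% to 4.35%. With its own 1st percentile subtracted from each library, the ratio of mean levels was 1.64 (exact permutation test, p = 0.0286). Levels were not corrected for cytosines left unconverted by bisulfite. The part of such cytosines in the small ratios of genes with low levels was not tested.

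The share of genes called moved with depth more than the size of the change did. From the decile of genes with the fewest calls (median 2054) to that with the most (median 125797), the median log2 odds ratio went from 0.55 to 0.68. Over the same range the middle 50% of genes narrowed from a width of 0.59 to 0.13, and the median standard error fell from 0.33 to 0.12. The share of genes that rose went from 39.5% to 97.8%, and the share with a positive log2 odds ratio from 83.9% to 99.6%. Median WT levels went from 0.907% to 1.80% along these deciles, so depth and level moved together. Within genes of similar depth the dependence on level was still seen. Among genes with up to 7537 calls, those in the lowest of 5 equal groups by level had a median log2 odds ratio of 0.31 and those in the fourth 0.71. Among genes with 22640 calls or more, the same groups had 0.40 and 0.72.

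**Figure D3:**
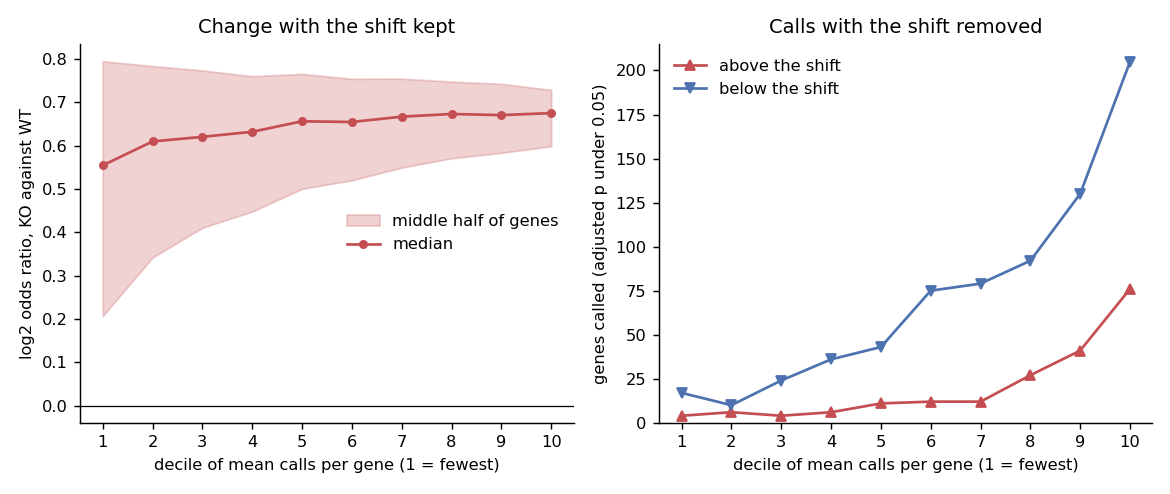
Left, log2 odds ratio of KO against WT by decile of the mean number of calls per gene, with the median as a line and the middle 50% of genes as a band. Right, the number of genes called above or below the common shift in the same deciles. The median goes from 0.55 to 0.68 while the band narrows, and the calls against the shift rise to 76 above and 205 below in the deepest decile.

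To ask which genes moved more or less than the rest, the shift was removed by giving each library an offset, the log odds of its median gene. A gene above or below the shift then changed more or less than that gene did. Of 19826 genes, 199 (1%) passed the test above the shift and 711 (3.59%) below it. All 199 above also rose with the shift kept. Of the 711 below, 283 still rose, 8 fell and 420 were called neither way. The 283 thus changed less than the median gene rather than downward, and for the 420 the direction was not settled. The genes below had low levels, with medians of 0.838% in WT and 0.986% in the KO. The genes above had 1.67% and 3.10%. With the shift taken as the pooled log odds of all calls, 316 genes were above it and 642 below, so the share above went from 21.9% to 33.0% of calls. The counts also depended on single libraries. The number above was 70 without WT library 1, 95 without WT library 4, 79 without KO library 1, and 115 without KO library 2 or KO library 3. The number below was 368, 448, 236 and 340 without WT library 1, WT library 4, KO library 1 and KO library 2. With only the 8 P40 libraries in the model, 105 genes were above and 466 below. By limma on log2(percent + 0.1), 0 genes were called either way after centring, with 988 above and 2477 below at an unadjusted p under 0.05.

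The lowest decile by level held 176 of the 711 genes below the shift and 1 of the 199 above. The shift was also removed separately within 20 bins of the 4-month WT level. Then 0.595% of genes lay above (118) and 2.22% below (440), of which 17 below were in the lowest decile. Of the 711 genes below the common shift 328 were kept, and of the 199 above 83 were kept. Genes below the shift of their bin had medians of 1.48% in WT and 1.97% in the KO with 79510 calls, against 13019 calls for all genes, and 330 of 440 rose with the shift kept.

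A smaller set met a stricter rule, which required a call against the common shift with all libraries and with each P40 library left out, a call within level bins, and libraries that did not overlap after centring (3.4% of all genes upward and 7.55% downward). This held for 54 genes above and 138 below, a set put together after the values were seen. The rule did not take in the other models, and limma on log2(percent + 0.1) called none of these genes. Among the 54, Bach2, a transcription factor of lymphocytes and neurons, had 1.43%, 1.77%, 1.72% and 1.49% in WT libraries 1 to 4 and 3.76%, 3.56%, 3.06% and 2.54% in KO libraries 1 to 4. The neural cell adhesion gene Ncam1 had 0.980%, 1.23%, 1.16% and 1.08% in WT and 2.53%, 2.35%, 2.26% and 1.76% in the KO. Slc6a11, the GABA transporter of astrocytes, had 1.96%, 2.54%, 2.20% and 1.98% in WT and 4.92%, 4.28%, 4.28% and 3.21% in the KO. In each of these genes all KO libraries were above all WT libraries, with KO library 4 the lowest of the KO. Relative to the shift, their log2 odds ratios were 0.36 (SE 0.04) for Bach2, 0.34 (SE 0.04) for Ncam1 and 0.30 (SE 0.04) for Slc6a11, with quasi-binomial adjusted p of 7.0e-05, 7.0e-05 and 5.6e-04. Ephb2, a receptor for ephrins, and Sema6a, a semaphorin, both guide axons and went from 1.85% to 3.42% and from 1.85% to 3.44%. The receptor phosphatase gene Ptprk went from 1.61% to 2.97% and the adhesion gene Cntn5 from 1.59% to 2.79%. Plppr1, Pacs2 and Adam19 completed the 10 with the smallest adjusted p among genes without predicted symbols. Picked by eye from the same set, with no list behind the choice, Gap43 went from 1.39% to 2.68%, Dpysl3 from 1.76% to 3.22% and Dpysl5 from 2.12% to 3.86%.

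Among the 138 genes below the shift by this rule, Slc24a2, a potassium-dependent sodium/calcium exchanger of neurons and cone cells, had 1.18%, 1.48%, 1.24% and 1.24% in WT libraries 1 to 4 and 1.67%, 1.66%, 1.51% and 1.18% in KO libraries 1 to 4. Its groups overlapped, and KO library 4 was near the lowest WT library. Ankrd33b had 1.73%, 2.02%, 1.74% and 1.50% in WT and 2.32%, 1.95%, 1.81% and 1.60% in the KO, again with overlap. Kctd1 had 2.08%, 2.46%, 2.30% and 2.15% in WT and 3.27%, 2.97%, 2.93% and 2.39% in the KO. Sox6, a transcription factor of developing interneurons and glia, had 3.63%, 4.20%, 3.94% and 3.53% in WT and 6.00%, 5.54%, 5.27% and 4.30% in the KO, with no overlap. Relative to the shift these 4 genes were at -0.44 (SE 0.05), -0.54 (SE 0.06), -0.30 (SE 0.04) and -0.19 (SE 0.02), with quasi-binomial adjusted p from 2.8e-05 to 1.3e-04. With the shift kept, Kctd1 and Sox6 rose (adjusted p = 0.00330 and 1.9e-04). Slc24a2 and Ankrd33b did not pass (adjusted p = 0.115 and 0.350), but Slc24a2 passed without KO library 4 (adjusted p = 0.00351). Picked in the same way, the nuclear receptor gene Rora went from 2.76% to 3.81%, the homeobox gene Cux1 from 3.11% to 4.22%, and Nfia from 3.06% to 4.41%. These 3 transcription factor genes rose with the shift kept and were at -0.20, -0.22 and -0.13 relative to it. Others picked by eye from this set were 4 genes of signalling enzymes, and Prkcb went from 1.24% to 1.71%, Camk2d from 2.66% to 3.70%, Plcb1 from 1.47% to 2.08% and Mapk10 from 0.972% to 1.23%. Genes of signalling enzymes were in the set above the shift as well, among them Map4k4 at 0.27 and Plch1 at 0.17. Likewise, neuronal adhesion genes were in both sets, with Dscam and Tenm4 among those below, both at -0.17. The set also held members of multicopy families (Vmn2r, Pramel and Zfp genes, Sp110 and Sp140), whose calls are uncertain because similar copies can share reads. Over the 138 genes the median WT level was 1.21% and the median log2 odds ratio with the shift kept was 0.29, and 67 of them rose. Over the 54 above, these medians were 1.60% and 0.94.

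**Figure D4:**
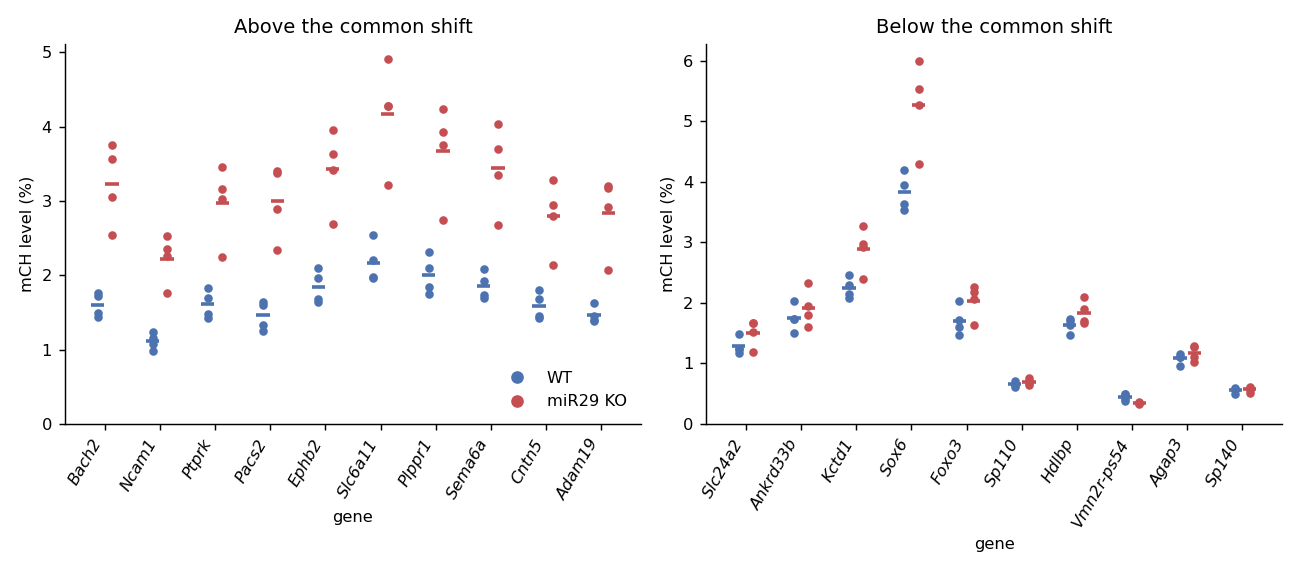
mCH level in percent of the 10 genes with the smallest adjusted p among those that met the stricter rule above (left) and below (right) the common shift, predicted genes left out. Pramel47 tied with the last gene on the right and is not shown. Each point is 1 library, WT in blue and miR29 KO in red, and short lines are means of 4 libraries. On the left all KO points are above all WT points, and on the right the groups overlap in 8 of the 10 genes.

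Genes named by size of change against the shift, at 5000 calls or more, included several from families of similar sequence, whose calls are uncertain. Serpina1c, a protease inhibitor of the liver, had 0.646%, 0.749%, 0.714% and 0.307% in WT libraries and 2.16%, 1.55%, 1.92% and 1.57% in KO libraries, and was 0.91 (SE 0.19) above the shift. Cercam, a cell adhesion gene of brain endothelium, went from 1.25% ± 0.226 to 2.83% ± 0.647 (SD, n = 4 each) and was 0.54 above it, with no overlap. Serpina1e, Pacs2 and Dppa1 were also above whichever library was left out. On the other side were the sulfotransferase gene Sult2a6 at 0.453% and 0.316%, the vomeronasal receptor gene Vmn2r43 at 0.528% and 0.380%, and the olfactory receptor gene Olfr18 at 0.520% and 0.369%. The oocyte gene Nlrp4a had 0.401% in WT and 0.292% in the KO, and the interleukin receptor gene Il3ra 0.578% and 0.313%. Relative to the shift Olfr18 and Nlrp4a were both at -1.17, the least of these 5, and Il3ra at -1.58, the most. With the shift kept Il3ra fell (quasi-binomial adjusted p = 0.0200), but not without WT library 1 or KO library 3 (0.0722 and 0.0598). Sult2a6, Vmn2r43, Olfr18 and Nlrp4a did not pass with the shift kept (adjusted p from 0.0606 to 0.105). Sult2a6 passed without KO library 4 (0.0394) and Vmn2r43 without WT library 2 (0.0392). All 10 other genes named by this rule lost their call without KO library 1, with quasi-binomial adjusted p from 0.0537 to 0.122. They were Klk5, Hexdc, Serpina3a, C1ra and Nrep above and Cts8, Midn, Ddx5, Obox5 and Pramel13 below, and each also lost it without at least 1 other library, at adjusted p of up to 0.123.

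In percentage points the largest rises were in Gjc1, Bcas3os2, Serpina3a, F3 and Hcn4, all at over 2% in WT. The gap junction gene Gjc1 had 2.44%, 3.19%, 2.83% and 2.05% in WT libraries and 5.95%, 5.10%, 5.02% and 3.65% in KO libraries, a difference of 2.30 points. Hcn4, a pacemaker channel gene, went from 3.27% to 5.47%, F3, which encodes tissue factor, from 2.34% to 4.56%, and the antisense RNA gene Bcas3os2 from 3.11% to 5.34%. Serpina3a, a serpin gene with similar copies, went from 2.04% to 4.27%, and was above the shift at 0.43 (quasi-binomial adjusted p = 0.0359), a call that was lost without KO library 1, as given above. With the shift removed, Hcn4 was at 0.10 and Bcas3os2 at 0.14, and neither passed (quasi-binomial adjusted p = 0.332 and 0.374). F3 was at 0.32 (adjusted p = 0.0561, 0.0492 without WT library 4, and up to 0.144 with another library left out). Gjc1 was at 0.27 (adjusted p = 0.0389), and its call was lost without WT library 1 or 4 or KO library 1, 2 or 3 (adjusted p from 0.0631 to 0.142).

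Some well-covered genes had almost the same level in both groups. Of 5067 genes with at least 1% in WT and 20000 calls, the 5 with the smallest log2 odds ratio were Adgrb2, Agap3, Bsn, Ankrd33b and Cyp3a59. Adgrb2, a brain adhesion receptor, had 1.67%, 1.84%, 1.77% and 1.94% in WT libraries and 1.71%, 1.94%, 2.04% and 1.52% in KO libraries. Bsn, which encodes the presynaptic scaffold bassoon, had 1.27%, 1.36%, 1.38% and 1.38% in WT and 1.44%, 1.59%, 1.46% and 1.37% in the KO. Agap3, an ARF GTPase-activating protein gene of synapses, had 0.959% to 1.16% in WT and 1.02% to 1.29% in the KO. The groups overlapped in all 3. Relative to the shift, Bsn was at -0.56 (SE 0.09), Agap3 at -0.57 (SE 0.08) and Adgrb2 at -0.69 (SE 0.13), with quasi-binomial adjusted p of 0.00207, 3.1e-04 and 0.0134. The Adgrb2 call was lost without WT library 1 (adjusted p = 0.0570).

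The Dnmt3a gene itself, whose messenger RNA the family targets, had 0.771%, 0.749%, 0.750% and 0.675% in WT libraries and 1.08%, 1.05%, 1.01% and 0.845% in KO libraries. These groups did not overlap. Dnmt3a was at -0.25 (SE 0.07) relative to the shift and did not pass (quasi-binomial adjusted p = 0.0504). It passed without WT library 2 (0.0356) or KO library 4 (0.0282), but its adjusted p reached 0.210 with another library left out. Within level bins Dnmt3a was at -0.12 (quasi-binomial adjusted p = 0.402). Its level over the gene body says nothing of its messenger RNA, which was not measured here. All 6 genes of DNA methyltransferases and TET oxidases rose, beside 76.5% of all genes. Their median depth was 52408 calls, and in the decile of genes with 39919 to 73535 calls 95.6% rose.

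The gene lists that follow are described by their counts and medians, beside 76.5% of all genes that rose, 1% above and 3.59% below the shift, and a median log2 odds ratio of 0.65. The share that rose moved with depth. It was 39.5% in the decile of genes with the fewest calls and 97.8% in that with the most. Removing the shift left a median over all genes of -0.03. In the excitatory markers the change differed from gene to gene. Foxp2, a transcription factor of deep layers and the best covered marker, had 2.30%, 2.69%, 2.45% and 2.12% in WT libraries and 4.22%, 3.90%, 3.85% and 2.98% in KO libraries, with no overlap, and was at -0.01 relative to the shift. As a list, markers of excitatory neurons stood lowest among the cell type lists. All 10 had a negative log2 odds ratio once the shift was removed, with a median of -0.24, and -0.29 within level bins. The median of -0.24 ran from -0.32 to -0.16 as each library was left out. With the shift kept 5 of 10 rose and the median was 0.44, from 0.37 to 0.52 as each library was left out. The calcium/calmodulin kinase gene Camk2a, a marker of these neurons, had 0.749%, 0.868%, 0.840% and 0.894% in WT libraries and 1.11%, 1.09%, 1.22% and 0.753% in KO libraries. It overlapped through KO library 4 and did not pass with the shift kept (quasi-binomial adjusted p = 0.0736). Cux2, of upper-layer neurons, had 1.72%, 1.96%, 1.76% and 1.55% in WT and 2.75%, 2.33%, 2.46% and 2.001% in the KO. Slc17a7, the vesicular glutamate transporter, had means of 0.665% and 0.692%. Fezf2 and Neurod6 had few calls and wide spreads, 1.82% ± 1.49 and 1.78% ± 0.354 in WT (SD, n = 4). Camk2a and Cux2 were below the shift, but neither call held whichever library was left out.

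Markers of other cell types moved with the shift or near it. Of the inhibitory neuron markers 7 of 9 rose with a median of 0.65, among them Erbb4, a neuregulin receptor, from 1.74% to 2.76%. With the shift kept 7 of the 9 had a positive log2 odds ratio. The list's median was -0.05 relative to the common shift and -0.10 within level bins. Of the astrocyte markers 7 of 8 rose. Slc1a2, the glial glutamate transporter, had 1.25%, 1.46%, 1.31% and 1.15% in WT and 1.82%, 1.78%, 1.64% and 1.46% in the KO, and was at -0.30 (SE 0.05) relative to the shift (quasi-binomial adjusted p = 0.00271). All 9 oligodendrocyte lineage markers rose with a median of 0.69, and 6 of 7 microglia markers with a median of 0.73. Their best covered members were Mbp, a myelin protein gene, which went from 1.97% to 2.76%, and the integrin gene Itgam, which went from 1.89% to 3.08%. All 7 vascular markers rose with a median of 0.77, and the median was 0.08 with either way of removing the shift, or 0.04 without WT library 1. Flt1, the best covered, went from 1.94% to 3.13%. Among them the endothelial receptor genes Tek and Kdr went from 1.45% to 2.52% and from 2.46% to 4.08%. The share of each cell type in the tissue was not measured, and its part in these differences was not tested.

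Neuronal gene families differed among their members. Of 38 glutamate and GABA receptor genes 33 rose, with a median of 0.62, with 3 above the shift and 5 below. The best covered, the metabotropic receptor gene Grm7, went from 1.18% to 1.82%. Grin2a, an NMDA receptor subunit, had 0.863%, 0.999%, 0.818% and 0.821% in WT libraries and 1.22%, 1.19%, 1.12% and 0.948% in KO libraries. Grin2b, another NMDA receptor subunit, had 0.908%, 0.943%, 0.864% and 0.850% in WT and 1.30%, 1.27%, 1.15% and 1.04% in the KO. The groups overlapped in Grin2a only through WT library 2 and KO library 4. Gabra5, a GABA-A receptor subunit, had 1.08%, 1.63%, 1.48% and 1.27% in WT and 3.13%, 2.77%, 2.46% and 2.07% in the KO, with no overlap. Relative to the shift Grin2a was at -0.32 (SE 0.05), Grin2b at -0.26 (SE 0.05) and Gabra5 at 0.28 (SE 0.06), and all 3 held whichever library was left out. These subunits thus lay on opposite sides of the shift.

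Of 55 synaptic vesicle and release genes 43 rose, with a median of 0.60, with 8 below the shift and 2 above. Rims1, an active zone scaffold gene and the best covered, went from 0.970% to 1.42%. Snap25, a SNARE protein of vesicle fusion, went from 0.605% ± 0.0623 to 0.693% ± 0.0452 (SD, n = 4 each), 0.49 below the shift in log2 units, with overlapping libraries. Bsn, given above, and Syt13 also held below it whichever library was left out. Syn3, a synapsin, went from 2.08% to 3.68%, and Unc13b, a vesicle priming gene, from 1.69% to 3.002%, and both held above it. Of the list only Syn3 was called above within level bins, so Unc13b was not. Of 61 voltage-gated channel genes 55 rose, including the calcium channel gene Cacna1c from 1.49% to 2.33%. Of 71 axon guidance genes 67 rose, including the netrin receptor gene Dcc from 2.04% to 3.31%. Of 34 cadherin and non-clustered protocadherin genes 32 rose, including Cdh13 from 2.27% to 3.75%. For these 3 families the median relative to the shift was within 0.03 of 0 and its sign changed with the way the shift was removed. Of 56 clustered protocadherin genes, neuronal adhesion genes that overlap one another, 32 rose and 11 lay below the shift, with medians of 0.44 with the shift kept and -0.24 with it removed. Within level bins 0 of the 56 were called either way (quasi-binomial model). Pcdha1, the best covered, went from 0.656% to 0.882%, with libraries that overlapped. Pcdhga1, at 0.682% and 0.888%, held below the common shift whichever library was left out. Of 14 immediate early genes 5 rose, with a median of 0.53. Their median depth was 3447 calls, and in the decile of genes with 2786 to 4495.5 calls 54.8% rose. Relative to the common shift 13 of the 14 were negative, with a median of -0.17, and -0.17 within level bins. Bdnf, a neurotrophin gene, went from 1.96% to 2.89%.

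Housekeeping gene lists had low levels and small changes. Of 54 cytosolic ribosomal protein genes 0 rose in the quasi-binomial model, where the median levels were 0.386% in WT and 0.408% in the KO. Rps15a, the best covered of them, had 0.601%, 0.561%, 0.525% and 0.706% in WT libraries and 0.791%, 0.789%, 0.616% and 0.736% in KO libraries, with overlap. The list's median log2 odds ratio was 0.16, and 0.28 without WT library 1. Its median depth was 2319 calls. Among all genes with up to 7537 calls in the lowest of 5 equal groups by level, 13.4% rose. Of 69 oxidative phosphorylation genes 11 rose with a median of 0.26, of 70 mitochondrial ribosomal protein genes 24 with 0.47, of 40 proteasome genes 13 with 0.49, and of 48 translation initiation factor genes 21 with 0.45. Relative to the common shift these 5 medians ran from -0.52 to -0.20. Within level bins they ran from -0.12 to -0.01, nearer to 0 than relative to the common shift. The best covered proteasome and initiation factor genes, Psme4 and Eif4g3, rose from 0.688% to 1.03% and from 0.838% to 1.28%. Of 2 histone genes tested 0 rose in the quasi-binomial model, and H3f3a had 0.637% in WT and 0.679% in the KO. Among members of high level Mrps28 went from 2.17% to 3.39% and the testis isoform gene Cox7b2 from 2.01% to 3.39%.

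Developmental and chromatin gene lists differed widely. Of 29 Hox genes, which pattern the body axis, 2 rose, and the median levels were 0.363% in WT and 0.379% in the KO. Hoxa3 had 0.445%, 0.346%, 0.309% and 0.348% in WT libraries and 0.348%, 0.360%, 0.357% and 0.312% in KO libraries. The Hox median log2 odds ratio was 0.06, and 0.20 without WT library 2 and 0.03 without KO library 4. It was -0.62 relative to the common shift and -0.27 within level bins. Of 60 other developmental homeobox genes 27 rose, with medians of -0.23 and -0.20 by the same 2 ways. Meis2, a homeobox gene of the forebrain, went from 2.78% to 4.00%. Of 13 T-box genes 9 rose, including Tbx15 from 1.96% to 3.13%. Of 375 zinc finger protein genes named Zfp, 188 rose and 26 were below the shift. Within level bins 4 were below, and the median went from -0.17 to -0.03. Zfp982, with 731048 calls, had 0.518%, 0.520%, 0.486% and 0.527% in WT and 0.549%, 0.532%, 0.551% and 0.516% in the KO, with overlap. Zfp982 belongs to a cluster of similar genes, so its calls are uncertain.

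Genes of extracellular matrix and of organs other than brain mostly rose with the shift. All 44 collagen genes and all 19 ADAMTS matrix protease genes rose, with medians of 0.70 and 0.74. Their median depths were 77062 and 78862 calls, and in the decile of genes with the most calls 97.8% rose. Col25a1, a neuronal transmembrane collagen, had 2.21%, 2.81%, 2.56% and 2.18% in WT libraries and 4.36%, 4.18%, 3.85% and 3.24% in KO libraries, without overlap. Adamts17 went from 2.18% to 3.44%. Of 50 keratin genes 46 rose with a median of 0.77, of 62 serpin genes 55 with 0.77, of 55 interleukin and chemokine genes 50 with 0.75, and of 333 solute carrier genes 283 with 0.68. The best covered keratin and serpin genes, Krt80 and Serpinb6a, rose from 2.22% to 3.43% and from 1.13% to 1.87%. Il16, a cytokine gene, went from 2.54% to 4.03%, and Slc9a9, a sodium/proton exchanger gene, from 2.27% to 3.39%. Of 89 cytochrome P450 genes 64 rose, including Cyp7b1, an oxysterol hydroxylase, from 2.31% to 3.65%. Of 34 tested defensin genes 23 rose, and the best covered, Defb1, went from 0.821% to 1.14%. The 2 families of chemosensory receptors differed. Of 111 tested olfactory receptor genes 71 rose, with a median of 0.73 and medians of 1.15% in WT and 1.90% in the KO. Of 134 tested vomeronasal receptor genes 40 rose and 1 fell, with a median of 0.12 and levels of 0.508% and 0.502%, and 45 lay below the shift, or 6 within level bins. Olfr56, the best covered olfactory gene, went from 1.83% to 3.20%, and Vmn2r60, the best covered vomeronasal gene, had 0.389% in WT and 0.413% in the KO. The tables held 1095 olfactory and 300 vomeronasal receptor genes, and those not tested had too few calls. Members of both families share sequence, so their calls are uncertain.

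**Figure D5:**
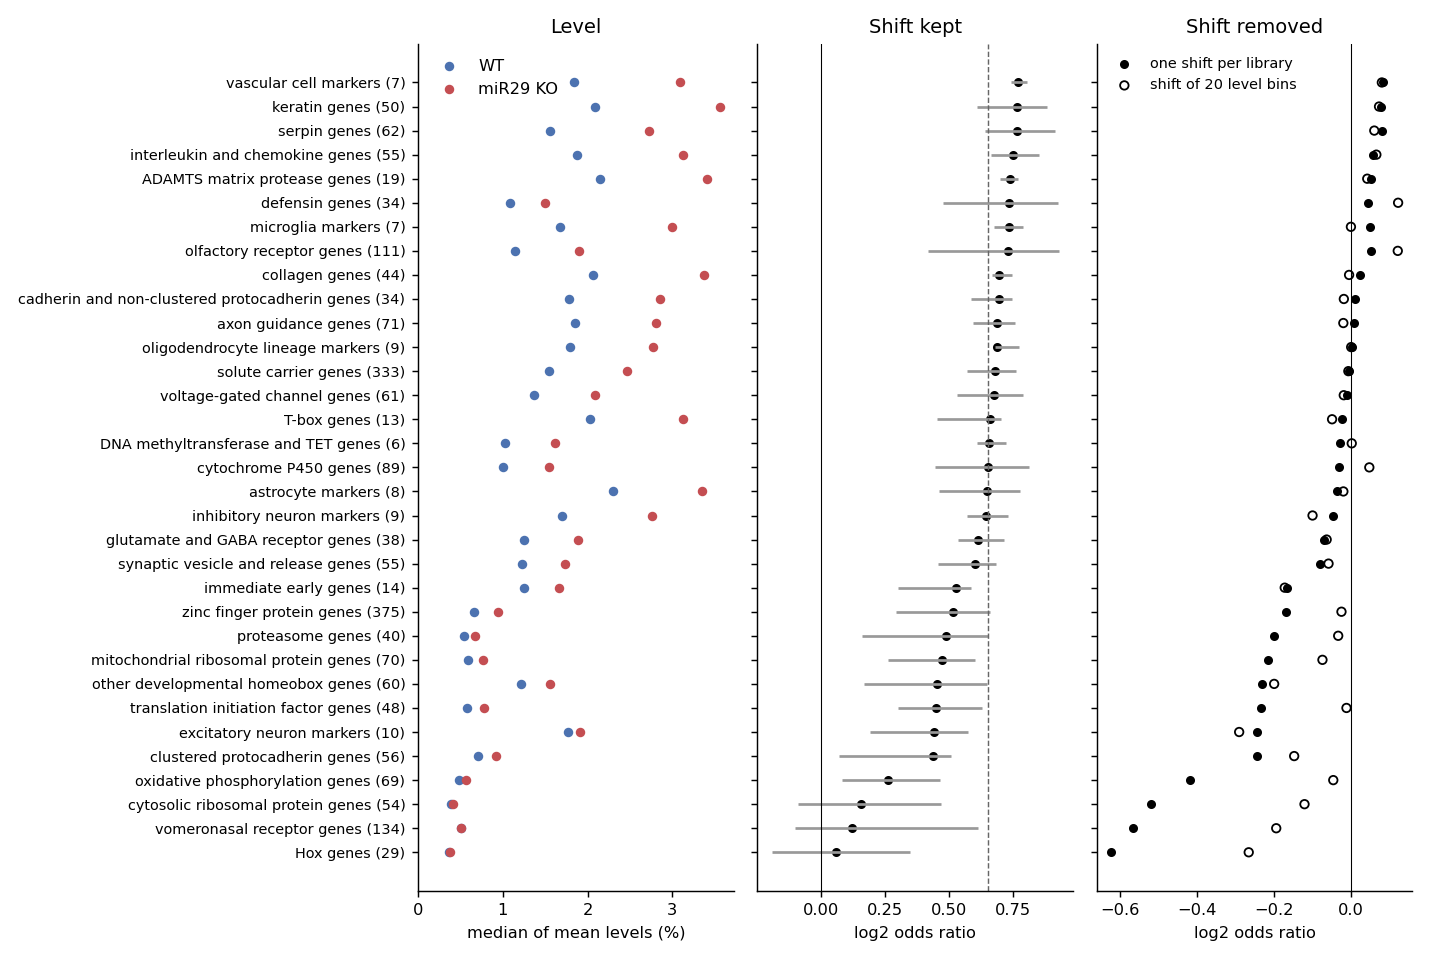
Gene lists with the number of tested members in parentheses. Left, median mCH level in percent in WT (blue) and miR29 KO (red); middle, median log2 odds ratio with the shift kept (points) and the middle 50% of members (lines), with a dashed line at the median of all genes; right, the median with the shift removed once per library (filled) or within level bins (open). Hox, vomeronasal, ribosomal protein and oxidative phosphorylation genes lie far left with filled points and nearer 0 with open ones. Filled and open points lie close together for excitatory neuron markers (-0.24 and -0.29), other developmental homeobox genes (-0.23 and -0.20) and immediate early genes (both -0.17).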

How the data were processed

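Bisulfite sequencing of sonicated cortex DNA was aligned with BSMAP to mm9, per the submitters' processing notes, and conversion rates were not used here. Per gene, the deposited tables hold methylated non-CG calls as whole counts and total calls as estimated counts, often not whole (35.7% to 62.2% whole per table), which were rounded. Levels in percent were computed from these deposited counts. Of 36672 rows, 300 without a symbol and 1395 with repeated identifiers were left out, and 19826 of 23882 genes reached a minimum of 500 calls throughout. Each gene was fitted with a quasi-binomial logistic model over all 12 libraries, with dispersion moderated by limma 3.58.1 (R 4.3.3) and Benjamini-Hochberg adjustment over all genes. The model without offsets was tried on simulated data with known changes in some genes and no common shift. The model with the shift removed was not tried in this way. Single values were compared by two-sided exact permutation tests (Python 3.11.15, numpy 2.4.6). Named genes were up to 10 each way with the largest called change against the shift, at 5000 calls or more and with centred libraries that did not overlap, 5 with the largest difference in points under the same limits with the shift kept, 5 with the smallest change at 20000 calls or more, and the best covered member of each list. Predicted symbols were not named. Genes of the stricter rule, called list members and others were chosen after their values were seen. Members and lists were chosen with earlier results of these data known. Alternatives were other minimums of calls, other models, other shifts, the replicate block, Y-gene coverage and each library left out.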

Additional observations from a re-analysis of the deposited data

Results flagged for a closer look

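In 3 of 172 groups of 4 libraries that were checked, 1 library stood apart from the other 3, and chance gives about 1 in 20. For Cts8 in WT the gap between that library and its nearest neighbour was 0.904 of the whole range, for Ddx5 in WT 0.879 and for Bsn in WT 0.863. The 4-month Dnmt3a mi5 libraries, which entered the models only through the spread, had a mean gene level of 2.33% (2.31% to 2.35%), above that of the 4-month WT libraries at 1.32% (1.31% to 1.32%).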

How the results depend on the processing

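The mean level ratio of 1.56 ran from 1.48 to 1.66 as each library was left out, and KO libraries stayed above all WT libraries. The exact permutation p was 0.0571 without any 1 of the 4 WT libraries and 0.0286 without any 1 KO library. The ratio was 1.61 without both P40 libraries of low Y-gene coverage (chosen after the data were seen). The slope ratio of 1.62 ran from 1.54 to 1.72, with an exact permutation p of 0.0571 without any 1 WT library, where slopes still did not overlap. The intercept difference of 0.0142 points ran from 0.0042 to 0.0315, and was -0.118 with the other P40 WT libraries as reference and -0.00622 with a minimum of 2000 calls. The count of genes that rose stayed within 1.5 times of 15167 in all alternatives, from 13863 to 16003 as each library was left out. The 9 genes that fell became 16 with no minimum of calls, 2 with a minimum of 2000, 15 by limma on log2(percent + 0.1), 19 with Y-gene coverage as a covariate, 14 without the 4 libraries of low Y-gene coverage, and 4 to 21 as each library was left out.

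The 199 genes above the shift became 105 with only the 8 P40 libraries fitted, 0 by limma on log2(percent + 0.1), 56 without the libraries of low Y-gene coverage, 118 within level bins, 316 with the pooled shift, and 70 to 246 as each library was left out. The 711 below became 466, 0, 207 and 440 in the first 4 of these settings, and 236 to 902 as each library was left out. The cause of these changes was not tested. Replicate numbers did not pair the libraries: same-numbered libraries had correlations of deviations of 0.018, -0.267, -0.187 and 0.263 over 7297 genes. The largest correlation, 0.543, was between WT library 2 and KO library 3, the P40 libraries of low Y-gene coverage. Its cause was not tested. With the replicate block 15498 genes rose, 35 fell, 260 lay above the shift and 963 below. Among named genes with the shift removed, 156 of the alternative values lost a call, 27 gained one and 1253 did neither. No called value changed sign, while some uncalled ones near 0 did. Depth limits the shallow genes most, where standard errors were widest.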
